A study of Mus musculus with 47 samples.

Results

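The genes of the circadian clock were followed in sorted mouse mammary epithelial cells across postnatal development. The 10 members, Dbp, Per1, Per2, Per3, Nr1d1, Nr1d2, Arntl, Clock, Cry1 and Cry2, were taken by name, with earlier results of these data known, and all 10 were among the 17078 genes of the deposited table. RNA-seq was performed on luminal (Lin-CD24+CD29lo) and basal (Lin-CD24+CD29hi) cells sorted by flow cytometry from FVB/N females. The 8 time points were 10-week-old nulliparous mice (W10), early pregnancy at day 3.5 (P3.5), later pregnancy at day 14.5 (P14.5), early lactation at day 3 (L3), full lactation at day 10 (L10), involution 2 days after forced weaning (Id2), the regressed gland 4 weeks after weaning (Iw4), and nulliparous mice of 4 months, matched in age to the latter (M4). Each sort pooled glands of 4 mice, so a replicate was a pool and not an animal, and the luminal and basal libraries with one number came from one sort. There were 46 libraries, 24 luminal and 22 basal, with 3 in each group except P14.5 basal and L10 basal, which had 2. The libraries held between 4398806 and 20023054 reads on genes (median 8518616), so that 3 reads corresponded to between 0.170 and 1.05 CPM (reads per 1e6 reads of an effective library size set by the authors). All values below are CPM unless a log2 difference is stated.

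The circadian clock is a transcriptional feedback loop found in nearly every cell. BMAL1, the product of Arntl, pairs with CLOCK and drives Per, Cry, Nr1d1, Nr1d2 and Dbp from E-boxes, the PER and CRY proteins repress that pair, and the REV-ERB proteins encoded by Nr1d1 and Nr1d2 repress Arntl from ROR elements. In the mammary gland, as in other peripheral tissues, the mRNAs of many of these genes rise and fall over the day, with Arntl in the opposite phase to Dbp, Per3 and Nr1d2. The hour at which the glands were collected is not given in the sources used here, and each sort was made on its own day (except that an L3 and an L10 sort shared a day in 2 cases), so a stage of development and an hour of collection cannot be told apart in any comparison of time points. The glands were also digested in medium with hydrocortisone, insulin and EGF and held cold overnight as organoids before sorting. In bulk samples, fewer cells of a type and less RNA per cell cannot be told apart.

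The promoters of 5 members are shown because they hold, or in Cry2 lack, the elements through which the loop acts. They are the RefSeq sequences of GRCm38.p6, which is not the build of the read counts, and 9 of the 10 members had one (Per2 did not). The motifs searched on both strands were the E-box CACGTG, the D-box TTATGTAA or TTACGTAA, the ROR/REV-ERB element, and the cyclic AMP element TGACGTCA. In the whole set of 32851 promoters of 300 bases, 7.15% held this E-box, 1.06% a D-box, 0.435% a ROR/REV-ERB element and 1.79% the cyclic AMP element. Cry1 and Cry2 are the members with the clearest cell type difference in time course, described below, and Per1, Per3 and Arntl were picked because their windows held a match. Each sequence runs 5′ to 3′ on the strand of the gene, over the 250 bases before the start or, for Arntl, over 30 bases after it, and capitals mark the match.
Cry1, chr10:85185055-85185304, minus strand, E-box at -60: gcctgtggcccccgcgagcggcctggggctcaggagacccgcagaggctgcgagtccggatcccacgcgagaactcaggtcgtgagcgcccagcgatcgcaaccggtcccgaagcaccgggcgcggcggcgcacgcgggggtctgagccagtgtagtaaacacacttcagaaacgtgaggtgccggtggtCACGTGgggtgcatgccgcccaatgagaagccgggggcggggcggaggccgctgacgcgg
Cry2, chr2:92434070-92434319, minus strand, no match: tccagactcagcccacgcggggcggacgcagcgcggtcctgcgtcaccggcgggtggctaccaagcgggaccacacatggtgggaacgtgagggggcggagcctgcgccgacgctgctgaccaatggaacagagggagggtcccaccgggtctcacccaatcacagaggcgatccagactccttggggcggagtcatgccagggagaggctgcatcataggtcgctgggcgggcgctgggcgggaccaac
Per1 (first of its promoters), chr11:69098699-69098948, plus strand, E-box at -166: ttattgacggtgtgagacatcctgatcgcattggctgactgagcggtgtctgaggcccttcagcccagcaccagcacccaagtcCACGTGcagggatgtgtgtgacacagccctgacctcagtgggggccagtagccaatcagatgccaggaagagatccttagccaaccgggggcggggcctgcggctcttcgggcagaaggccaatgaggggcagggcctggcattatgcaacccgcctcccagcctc
Per3, chr4:151044666-151044915, minus strand, D-boxes at -205 and -158: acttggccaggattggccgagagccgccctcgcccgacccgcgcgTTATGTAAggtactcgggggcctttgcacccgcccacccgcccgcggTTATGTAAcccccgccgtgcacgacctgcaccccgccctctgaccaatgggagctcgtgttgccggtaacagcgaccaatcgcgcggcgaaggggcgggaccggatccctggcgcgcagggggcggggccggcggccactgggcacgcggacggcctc
Arntl, chr7:113207528-113207557, plus strand, ROR/REV-ERB element 28 bases after the start of its second promoter: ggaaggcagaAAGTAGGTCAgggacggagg
A match is only a match of letters, and the window of Cry2 with none says nothing of more distant elements. The promoters of Dbp, Nr1d1, Nr1d2 and Clock held none of these letters in 300 bases.

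The labels of the libraries were first set against the markers of their cell types. The summed level of 8 luminal markers lay between 4335 and 9513 in luminal libraries and between 221 and 2450 in basal ones. The summed level of 8 basal markers lay between 10479 and 65313 in the basal libraries of the 7 time points other than Id2, and between 83.2 and 2426 in luminal libraries. In the basal libraries of Id2 it was 1178 in replicate 2, 14646 in replicate 4 and 954 in replicate 6. Replicates 2 and 6 thus fell within the luminal range for basal markers. Summed markers of fibroblasts (6 of 6 in the table, led by Col1a1) reached 71669 in Id2 basal replicate 6 against 220.5 to 696 at W10 and P3.5. They were also high in Id2 basal replicate 4 (10155), in the P14.5 basal libraries (11676 in replicate 3 and 5943 in replicate 5) and in L3 basal replicate 6 (5651). The 6 of 6 endothelial markers, led by Cdh5, reached 10318 in Id2 basal replicate 2 against 472 and 339 in replicates 4 and 6. Thus 2 of the 3 basal libraries of Id2 went against their label, so the tests over time points and the correlations are also given without Id2. Pericyte markers (6 of 6, led by Rgs5) also moved with time in the basal libraries. They summed to between 95.4 and 122 at W10, to between 1547 and 7380 at L3, and to 8683 and 15512 in the 2 libraries of L10, and in the Id2 basal libraries to 3058, 10770 and 2624 in replicates 2, 4 and 6. Id2 basal replicate 4, which kept its basal markers, thus carried pericyte and fibroblast markers too. The lineage selection of the sort, which was to remove such cells, held antibodies to CD31, an endothelial antigen, and to CD140a, the product of Pdgfra, the latter listed as against the human antigen. The part of these other cells in the clock gene values was not tested.

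Levels of different genes were compared only per kilobase of exon. In luminal cells the order of the means over the 8 time points was Per1 (63.2 ± 14.9 CPM per kb, SD over time points), Nr1d1 (57.6 ± 29.8), Per2 (27.3 ± 9.91), Nr1d2 (15.0 ± 4.31), Cry2 (8.84 ± 2.28), Cry1 (7.28 ± 2.87), Clock (5.47 ± 1.32), Per3 (2.37 ± 1.12), Arntl (1.66 ± 0.480) and Dbp (0.531 ± 0.270). In basal cells it was Nr1d1 (71.6 ± 42.4 CPM per kb), Per1 (60.5 ± 22.7), Per2 (20.4 ± 13.0), Nr1d2 (17.4 ± 2.18), Cry2 (9.26 ± 6.83), Clock (9.19 ± 2.1), Cry1 (4.19 ± 1.66), Per3 (3.09 ± 1.08), Arntl (1.76 ± 0.619) and Dbp (1.69 ± 1.52). The neighbours that did not differ beyond the larger of their SDs were Per1 and Nr1d1, Cry2 and Cry1, Cry1 and Clock, and Per3 and Arntl in luminal cells, and Nr1d1 and Per1, Per2 and Nr1d2, Cry2 and Clock, Cry1 and Per3, and Arntl and Dbp in basal cells. Dbp, a PAR bZIP factor that acts on D-boxes and is an abundant clock output in other tissues, had the lowest mean over the time points in both cell types, in basal cells within the SD of Arntl, with 2 to 31 reads in a luminal library and 1 to 197 in a basal one. At L10 in basal cells it was at 4.99 CPM per kb, above Arntl at 0.837. Its low counts carry counting error, and 18.0% of its exon bases lie opposite those of Sphk2. Whether the reads of Dbp and Sphk2 were kept apart by strand was not tested. For Nr1d1, 8.55% of the exon bases lie opposite Thra.

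**Figure D1:**
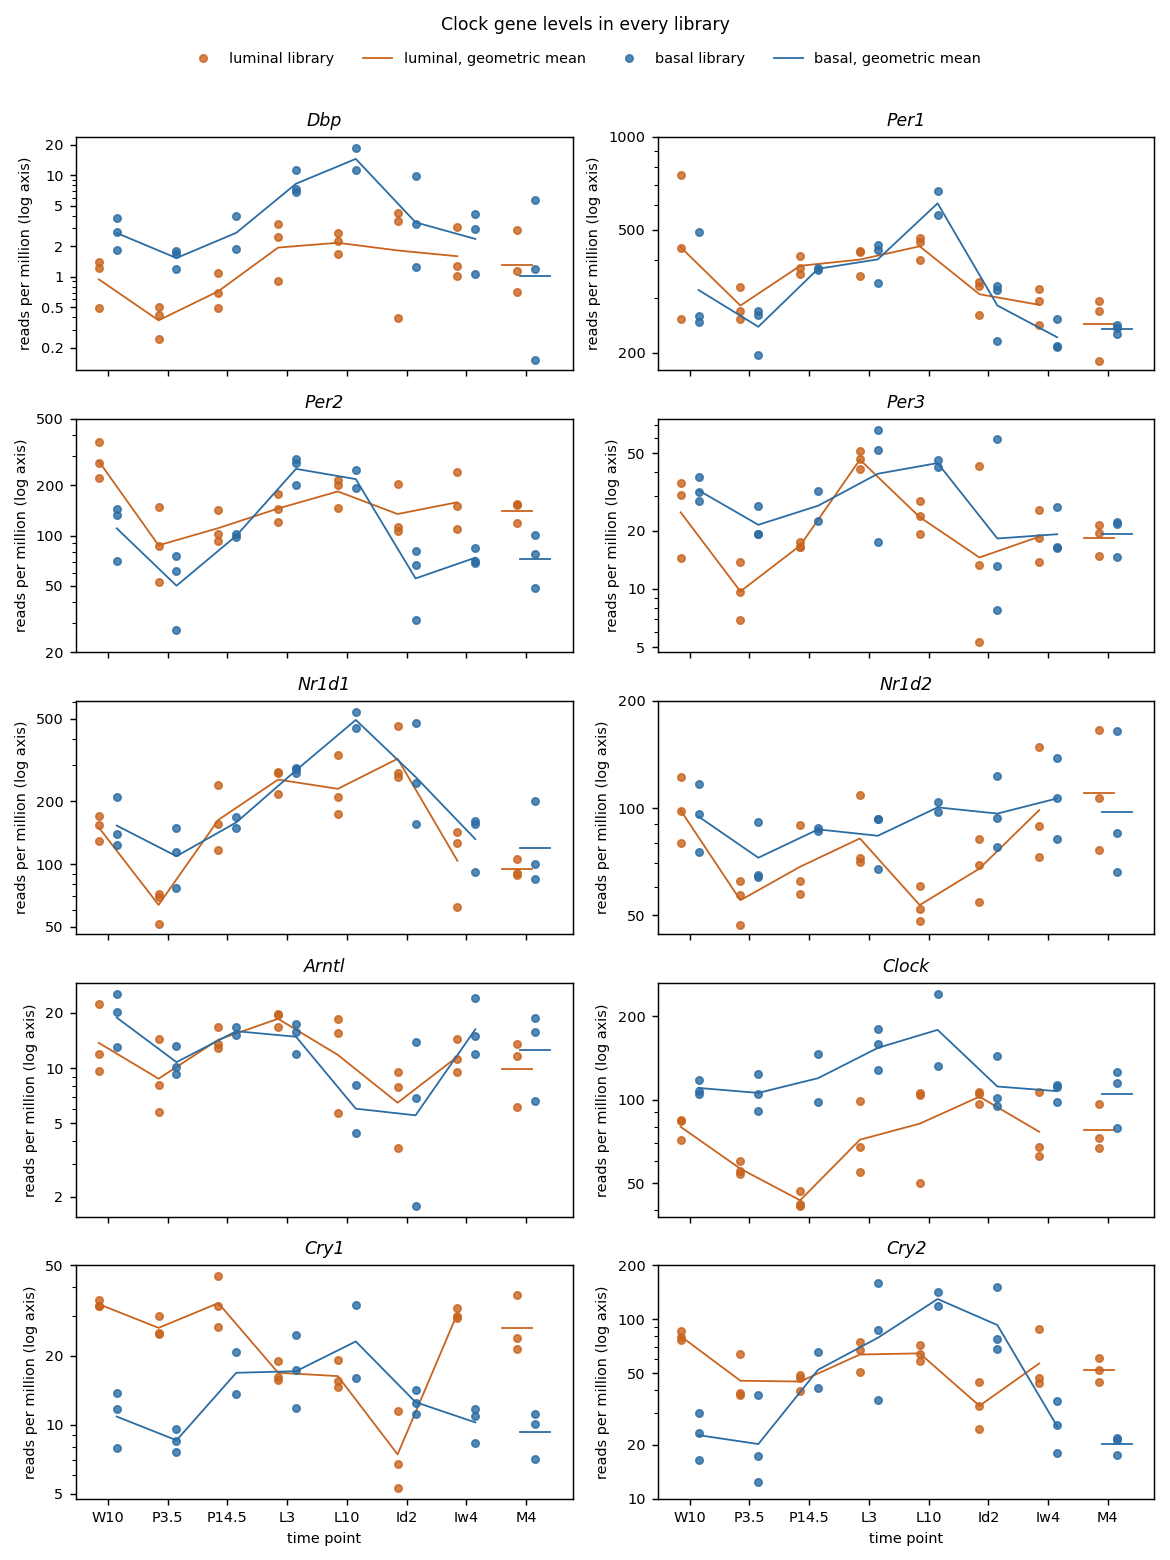
Levels in CPM (log axis) of the 10 clock genes in each of 46 libraries at the 8 time points, with luminal libraries in orange and basal in blue. Lines join geometric means of the time points W10 to Iw4, and the nulliparous M4 group is drawn as a separate bar. For Cry1 and Cry2 the line of the basal libraries starts below that of the luminal ones at W10, lies above it at L10 and Id2, and is below it again at Iw4.

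The question of which clock genes differed between luminal and basal cells was asked with limma over all genes on log2(CPM + 1), with Benjamini-Hochberg adjustment and a call at an adjusted p under 0.01 and a difference of at least 2-fold. Averaged over the 8 time points, no clock gene was called, against 21.0% of all genes. edgeR on the recovered reads called 1, Dbp, as limma did without Id2. An unadjusted p under 0.05 was reached by 8 of the 10. At that looser threshold the share of all genes was 64.9%. For Cry1, Cry2 and Per2 the average joined estimates of opposite sign at different time points. Clock (0.75 ± 0.093 on the log2 scale, basal minus luminal ± SE, adjusted p = 5.48e-09) and Dbp (0.98 ± 0.19, adjusted p = 2.52e-05) were higher in basal cells by less than 2-fold on this scale. Cry1 (-0.72 ± 0.10, adjusted p = 9.58e-08) and Per2 (-0.57 ± 0.13, adjusted p = 0.000344) were lower. The median of the members was 0.15, beside 0.02 for all genes tested.

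At single time points 13 differences were called in 5 of the genes (45.8% of all genes were called at 1 or more), 5 with basal higher and 8 with basal lower. Of all genes, 14.2% were called at W10, 11.9% at P3.5, 12.9% at P14.5, 25.8% at L3, 24.7% at L10, 21.6% at Id2, 11.5% at Iw4 and 12.4% at M4. Among the members 3 were called at W10, 2 each at L10, Id2 and M4, and 1 at each of the other 4 time points. At most time points these counts are near the background share of 10 genes. Per1, Per3, Nr1d1, Nr1d2 and Arntl were called at no time point.

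**Figure D2:**
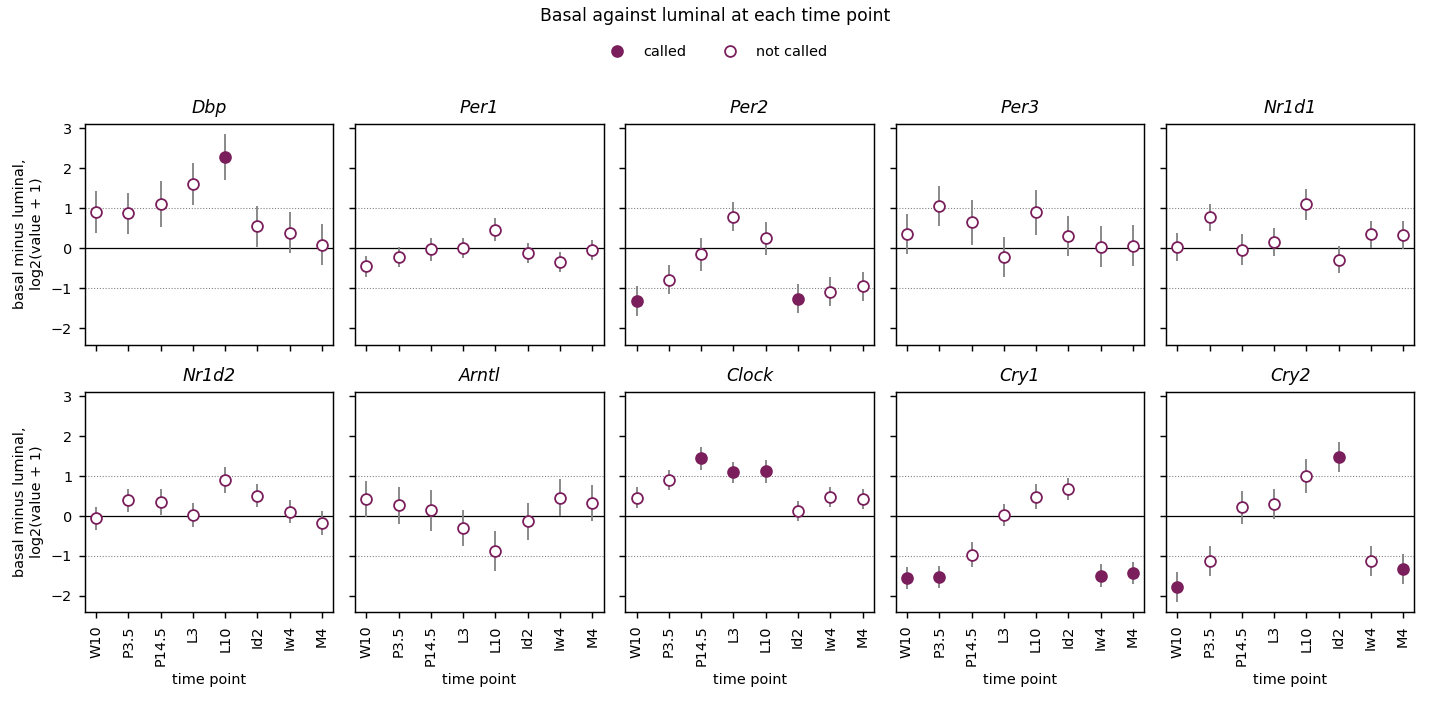
Basal minus luminal difference of each clock gene at each time point, on the log2(CPM + 1) scale, with its SE as a bar and the called differences filled. Cry1 lies near -1.5 at W10, P3.5, Iw4 and M4 and near or above 0 from L3 to Id2, and Clock is at or above 0 at every time point.

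Cry1 and Cry2 encode the cryptochromes, the repressors that bind CLOCK and BMAL1 directly, and both had a time course that differed between the cell types. For Cry1 the luminal levels were 33.0, 35.2 and 33.0 at W10, 18.9, 15.8 and 16.1 at L3, 14.6, 15.5 and 19.2 at L10, 11.5, 6.74 and 5.29 at Id2, and 29.4, 30.0 and 32.6 at Iw4. The basal levels of Cry1 were 11.7, 13.8 and 7.92 at W10, 17.4, 24.6 and 11.8 at L3, 16 and 33.5 at L10, 14.2, 12.5 and 11.2 at Id2, and 11.8, 8.34 and 11.0 at Iw4. At P3.5 they were 25.1, 29.9 and 24.9 in luminal and 7.64, 9.62 and 8.52 in basal libraries, at P14.5 44.7, 26.7 and 33.1 in luminal and 13.6 and 20.9 in basal ones, and at M4 36.8, 21.4 and 24 in luminal and 10.1, 7.08 and 11.1 in basal ones. Luminal libraries of Cry1 were above all basal ones at W10, P3.5, P14.5, Iw4 and M4, overlapped them at L3 and L10, and lay mostly below them at Id2. Cry1 was called lower in basal cells at W10 (-1.55 ± 0.28, adjusted p = 5.22e-05), P3.5 (-1.53 ± 0.28, adjusted p = 6.43e-05), Iw4 (-1.49 ± 0.28, adjusted p = 0.000112) and M4 (-1.43 ± 0.28, adjusted p = 0.000178, and 0.0104 without M4 replicate 1). At P14.5 the difference was -0.97 ± 0.31 (adjusted p = 0.0211) and was not called.

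For Cry2 the luminal levels were 76.0, 79.2 and 86.0 at W10, 67.1, 51.0 and 74.7 at L3, 58.4, 71.5 and 64.0 at L10, and 32.6, 24.3 and 44.8 at Id2. The basal levels of Cry2 were 23.2, 30.0 and 16.4 at W10, 35.3, 86.4 and 159 at L3, 118 and 142 at L10, 68.2, 151 and 77.1 at Id2, and 21.2, 21.9 and 17.4 at M4. Every luminal library exceeded every basal one at W10, the cell types overlapped at L3, and at L10 and Id2 every basal library exceeded every luminal one. The difference was called at W10 (-1.79 ± 0.38, adjusted p = 0.000412, and 0.0244 without W10 replicate 6), at M4 (-1.33 ± 0.38, adjusted p = 0.00865, lost with edgeR and in 10 of the 24 fits that left out 1 sort, up to 0.0838 without an M4 sort) and, in the other direction, at Id2 (1.47 ± 0.38, adjusted p = 0.00227, and 0.134 without Id2 replicate 4). The basal libraries of Id2 carried the markers of other cells given above.

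The test of the difference between the 2 time courses, an F-test of the interaction in the same fit, called Cry1 (adjusted p = 8.41e-06) and Cry2 (adjusted p = 3.26e-05), 2 of the 10 genes against 13.4% of all genes. Without the Id2 libraries both were still called, at adjusted p = 0.000281 for Cry1 and 0.00094 for Cry2. Per2 had an adjusted p of 0.0109, and it was called with the sort as a replicate block (adjusted p = 0.00258), without all Id2 libraries, among genes with a mean of at least 5, and when Id2 replicate 2 or 4 or any one P3.5 sort was left out. Clock was not called (adjusted p = 0.0681).

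Clock, the partner of BMAL1, was called higher in basal than luminal cells at P14.5, L3 and L10. Its luminal levels were 42.1, 41.4 and 46.7 at P14.5, 55.0, 99.1 and 67.7 at L3, and 50.2, 104 and 106 at L10. Its basal levels were 146 and 98.1 at P14.5, 159, 180 and 128 at L3, and 132 and 242 at L10. The cell types did not overlap at these 3 time points, nor at W10 (71.8 to 84.5 luminal and 105 to 118 basal) and P3.5 (53.8 to 60.3 and 90.8 to 124), where the differences of 0.46 ± 0.25 and 0.90 ± 0.25 were below 2-fold. The difference in Clock was called at P14.5 (1.44 ± 0.28, adjusted p = 0.000217), L3 (1.09 ± 0.25, adjusted p = 0.000676) and L10 (1.11 ± 0.28, adjusted p = 0.00193). Each was lost when 1 sort was left out, at P14.5 without replicate 3 (adjusted p = 0.0695), at L3 without replicate 4 (0.0272), and at L10 without replicate 4 (0.0333), which had a luminal library only, or 6 (0.0807). P14.5 basal replicate 3 was the library with 11676 of fibroblast markers. Where leaving out a sort left 1 basal library, as at P14.5 and L10, that library was assumed to vary like the other groups.

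Per2, a repressor of the CLOCK and BMAL1 pair, was called lower in basal cells at W10 and Id2. Its luminal levels were 221, 272 and 362 at W10 and 106, 113 and 204 at Id2, and its basal levels were 133, 145 and 70.7 at W10 and 31.4, 81.2 and 67.1 at Id2. Luminal and basal libraries did not overlap at either time point. The difference was -1.33 ± 0.37 at W10 (adjusted p = 0.00626) and -1.26 ± 0.37 at Id2 (adjusted p = 0.00649). At L3 the levels of Per2 were 177, 121 and 144 in luminal and 201, 272 and 290 in basal libraries, all basal ones above all luminal ones, with a difference of 0.78 ± 0.37 that was not called (adjusted p = 0.0866). The W10 call of Per2 was lost without any one W10 sort, at adjusted p between 0.0104 and 0.238. Its Id2 call was lost without Id2 replicate 2 (0.0643) or 6 (0.058), the replicates whose basal libraries had basal markers in the luminal range. With edgeR the Id2 call of Per2 was lost too (adjusted p = 0.0104). Dbp was called at L10 alone, where its luminal levels were 2.26, 1.67 and 2.68 and its basal levels 11.2 and 18.7 (2.29 ± 0.58, adjusted p = 0.00176). This Dbp call was lost without L10 replicate 5 (adjusted p = 0.0119) or 6 (0.0574) and with a pseudocount of 0.1 (0.0181), and with the sort as a replicate block or without Id2 Dbp was called at L3 too.

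Whether a gene varied over the 8 time points was then tested within each cell type with limma's F-test. In luminal cells 3 of the 10 were called, against 34.0% of all genes: Cry1 (adjusted p = 9.50e-07), Nr1d1 (adjusted p = 6.55e-06) and Clock (adjusted p = 0.00515). With the sort as a replicate block Nr1d2 was added (adjusted p = 0.00784), and at a threshold of 0.05 the count was 7. Of all genes, 48.7% passed 0.05 in this test. In basal cells 6 of the 10 were called, against 44.5% of all genes: Cry2 (adjusted p = 1.42e-07), Per2 (6.96e-06), Nr1d1 (6.00e-05), Per1 (0.00054), Dbp (0.00125) and Cry1 (0.00224). Both shares are close to the background. Without the Id2 libraries the luminal genes called were Per2, Per3, Nr1d1 and Cry1, so that Per2 and Per3 were gained, and the same 6 basal genes were called. The luminal call of Clock was lost without the Id2 libraries (adjusted p = 0.0278) and in 7 of the 24 fits that left out 1 sort, those without any one P14.5 sort (0.0131 to 0.0212) among them, and the basal calls of Dbp (0.0157) and Cry1 (0.0178) were lost without L10 replicate 6. With a pseudocount of 0.1 the basal call of Dbp was lost too (adjusted p = 0.0121).

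Nr1d1 encodes REV-ERBα, a repressor of Arntl. Its luminal levels were 129, 170 and 154 at W10, 69.4, 72.2 and 51.7 at P3.5, 277, 218 and 274 at L3, 462, 262 and 273 at Id2, and 90.9, 88.3 and 106 at M4. The P3.5 libraries were below those at W10, and L3 and Id2 were above them, with no overlap. Against the mean of the other 7 time points, Nr1d1 was called lower at P3.5 (-1.42 ± 0.26, adjusted p = 0.000368, and 0.0161 without P3.5 replicate 6) and higher at Id2 (1.22 ± 0.26, adjusted p = 0.000587, and 0.0133 without Id2 replicate 2). Nr1d1 was the 1 member called in luminal cells at P3.5 (2.16% of all genes were called lower) and 1 of 2 at Id2 (10.2% were called in either direction). The other was Cry1, lower at Id2 (-1.65 ± 0.21, adjusted p = 2.70e-07). Luminal Id2 replicate 6 had a higher sum of fibroblast markers (5192 CPM) than any other luminal library, and had the lowest Cry1 level, 5.29.

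Luminal Per2 was called higher at W10 (1.05 ± 0.28, adjusted p = 0.00946, against 1.72% of all genes called higher) and luminal Per3 at L3 (1.36 ± 0.38, adjusted p = 0.00861, against 4.47%). Per3 levels were 47.1, 51.4 and 41.4 at L3 and 23.8, 19.2 and 28.3 at L10 in luminal cells. The L3 libraries were above those of L10. Both calls passed the threshold narrowly, and of the 24 fits that each left out 1 sort, Per2 was lost in 17 and Per3 in 16. Per2 was also lost with a pseudocount of 0.1 (0.0111). Without Id2 both were still called, and luminal Per3 at P3.5 and Nr1d1 at L3 and basal Cry2 at L3 were called too.

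In basal cells several clock genes were highest in lactation. At L10, 5 of the 10 were called higher than at the other time points, against 8.02% of all genes called higher, and the median difference of all 10 was 0.99 beside -0.09 for all genes. The 5 were Dbp (1.99 ± 0.47, adjusted p = 0.00154), Cry2 (1.79 ± 0.34, adjusted p = 0.000155), Nr1d1 (1.59 ± 0.31, adjusted p = 0.000234), Per2 (1.29 ± 0.33, adjusted p = 0.00342) and Per1 (1.06 ± 0.23, adjusted p = 0.000663). L10 basal had 2 libraries, so leaving out either left 1 library that was assumed to vary like the other groups. All 5 calls were lost without replicate 6 (adjusted p between 0.0108 for Nr1d1 and 0.127 for Per2, with differences of 0.94 to 1.72), and those of Nr1d1 (0.0112) and Per2 (0.0173) also without replicate 5. That of Dbp was lost with a pseudocount of 0.1 (0.0132). Per1 levels were 558 and 666 at L10, 337, 431 and 445 at L3, and 241, 230 and 246 at M4. Nr1d1 levels were 540 and 449 at L10, 285, 288 and 274 at L3, and 200, 100 and 84.9 at M4. The L10 libraries were above all of L3, and L3 above all of M4, in both genes.

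Dbp in basal cells was 11.2 and 18.7 at L10, 11.1, 6.85 and 7.33 at L3, and 1.81, 1.19 and 1.66 at P3.5. Lactation and early pregnancy did not overlap. Per2 in basal cells was 201, 272 and 290 at L3 and 27.4, 61.1 and 75.6 at P3.5. It was called higher at L3 (1.53 ± 0.28, adjusted p = 0.000133), where 8.07% of all genes were called in either direction. At P3.5 it was called lower (-1.10 ± 0.28, adjusted p = 0.00296), where 6.00% of all genes were called lower. This P3.5 call was lost without P3.5 replicate 2 (adjusted p = 0.144) and with edgeR (0.011). Cry2 was called lower at P3.5 (-1.21 ± 0.29, adjusted p = 0.00162, and 0.0667 and 0.0224 without P3.5 replicate 2 or 4) and at M4 (-1.22 ± 0.29, adjusted p = 0.00669, against 1.13% of all genes called lower, lost with edgeR at 0.0128, without Id2 at 0.0194 and in 6 of the 24 fits that left out 1 sort), and higher at Id2 (1.24 ± 0.29, adjusted p = 0.000836, against 9.20%, and 0.0379 without Id2 replicate 4).

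For the members not called over time in a cell type with all libraries, the highest group mean was between 1.48 times (basal Nr1d2) and 7.03 times (luminal Dbp) the lowest (means ± SD, n = 3, or 2 for L10 basal). In luminal cells Arntl lay between 7.00 ± 3.00 at Id2 and 18.7 ± 1.63 at L3 (adjusted p = 0.198), and in basal cells between 6.29 ± 2.59 at L10 and 19.6 ± 6.27 at W10 (adjusted p = 0.0279). Nr1d2 lay between 53.6 ± 6.28 at L10 and 116 ± 45.3 at M4 in luminal cells (adjusted p = 0.0126) and between 73.5 ± 15.7 at P3.5 and 109 ± 28.1 at Iw4 in basal cells (adjusted p = 0.723). Per3, which encodes a PER protein with a smaller part in the loop, lay between 10.1 ± 3.44 at P3.5 and 46.6 ± 5.05 at L3 in luminal cells (adjusted p = 0.0289), and its basal L3 libraries were 52.2, 17.5 and 66.4. The sort with 17.5 had a luminal level of 51.4, so here the cell types of one sort did not move together. Luminal Per1 was 753, 258 and 438 at W10 and 188, 273 and 295 at M4 (adjusted p = 0.0238 over time). The W10 libraries were spread more widely than the group means were. Luminal Dbp lay between 0.390 ± 0.135 at P3.5 and 2.74 ± 2.06 at Id2 (adjusted p = 0.281), luminal Cry2 between 33.9 ± 10.3 at Id2 and 80.4 ± 5.12 at W10 (adjusted p = 0.113), and basal Clock between 107 ± 24.6 at M4 and 187 ± 77.3 at L10 (adjusted p = 0.106). All of these p-values are from limma's F-test over all genes.

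Other gene lists moved in the same basal libraries. Per1 and Per2 are known to respond to serum, stress and glucocorticoids within an hour, so 11 immediate early genes and 8 genes known to respond to glucocorticoids were read beside them. The immediate early genes summed to 41369 and 54627 at L10 and to between 9911 and 14189 at P3.5 in basal cells. At L10, 5 of 11 (Fosb, Jun, Dusp1, Atf3 and Zfp36) were called higher in basal cells, against 8.02% of all genes. In luminal cells 7 of 11 (Fos, Fosb, Jun, Dusp1, Atf3, Zfp36 and Btg2) were called lower at P3.5, against 2.16% of all genes. This was the time point at which Nr1d1 was lower. Of the 8 glucocorticoid-responsive genes, 1 (Zbtb16) was called higher at L10 in basal cells, a count near the share of all genes (8.02%). In basal cells at P3.5, where Per2 and Cry2 were called lower, 4 of the 8 (Tsc22d3, Klf9, Zbtb16 and Errfi1) were called lower too. So were 3 of the 11 immediate early genes (Fosb, Jun and Dusp1), against 6.00% of all genes called lower there. The pericyte markers had their highest mean at L10. In L10 basal replicates 5 and 6 the endothelial markers summed to 973 and 561 (66.7 to 143 at W10) and the fibroblast markers to 1221 and 1570 (220 to 349). The adipocyte markers (3 of 6 in the table, led by Fabp4) summed to 765 and 742 (12.6 to 39.4) and the milk protein genes to 26376 and 8280 (315 to 2134). The part of these lists and markers in the clock gene values was not tested.

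The time points that shared an amplification batch were P3.5 with P14.5, L3 with L10, and W10 with Id2. The time points of each of these pairs were sequenced on different lanes, so that stage and lane cannot be told apart in them. Cry1 in luminal cells was lower at Id2 than at W10 (-2.04 ± 0.28, adjusted p = 1.46e-06, against 10.4% of all genes called), with its 3 Id2 libraries at 11.5 or below and its 3 W10 libraries at 33.0 or above. In basal cells, whose Id2 libraries carried the other markers, Cry2 was higher (1.99 ± 0.38, adjusted p = 9.26e-05, against 17.4%) and Arntl lower at Id2 (-1.53 ± 0.45, adjusted p = 0.00914, lost with edgeR at 0.0323, with median-ratio rescaling at 0.0134, without Id2 replicate 6 at 0.136, and in 16 of the 24 fits that left out 1 sort). No member was called between P3.5 and P14.5 (1.52% of all genes in luminal and 3.64% in basal cells) or between L3 and L10 (0.381% and 1.14%). Without the Id2 libraries Nr1d1 was called in a pair of time points that shared batches. With all libraries limma gave 1 luminal and 4 basal members with an unadjusted p under 0.05 in the pregnancy pair and 1 luminal and 3 basal members in the lactation pair, and edgeR called 0 in each. In the pregnancy pair 15.1% of all genes in luminal and 24.4% in basal cells reached that unadjusted threshold. In the lactation pair the shares were 15.5% and 18.8%. The shares before these are of calls. The samples at 4 weeks after weaning and their age-matched controls shared 3 batches, although the fit held no batch term. No member was called between them, where limma called 0% of all genes in luminal cells and 0.00586% in basal cells, with 0 members at an unadjusted p under 0.05 and 0 called by edgeR. Within a batch the log2 differences of the members, Iw4 minus M4, ran from -0.75 (Nr1d1, luminal) to 1.77 (Dbp, basal). The value for Dbp rested on M4 basal replicate 6, where Dbp had 1 read, so its size is uncertain. Time points of different batches cannot be told apart from the batch.

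Sorts of one time point also differed from each other, and for Arntl and Nr1d2 the 2 cell types of a sort tended to move together, as they did for Per3 at Id2. The SD of these genes within groups, on the log2 scale, was 0.58 for Arntl, 0.66 for Per3 and 0.37 for Nr1d2, beside a median of 0.41 over 10580 genes with a mean of at least 5. Arntl at Id2 was 9.49, 7.86 and 3.66 in the luminal and 13.9, 6.88 and 1.78 in the basal libraries of sorts 2, 4 and 6. Per3 at Id2 was 5.34, 13.3 and 43.3 in the luminal and 7.81, 13.1 and 59.1 in the basal libraries of the same sorts. Sort 2 was thus the highest for Arntl and the lowest for Per3 in both cell types, and sort 6 the reverse. The fibroblast markers of these sorts summed to 223, 485 and 5192 in luminal and to 3023, 10155 and 71669 in basal libraries, in the same order as Per3, and basal sorts 2 and 6 were those with basal markers in the luminal range. The part of these markers in the clock gene levels was not tested. At M4, Nr1d2 was 166, 76.4 and 107 in luminal and 165, 85.3 and 66.0 in basal libraries of sorts 1, 2 and 6, with Dbp at 2.88, 1.14 and 0.701 and at 5.70, 1.19 and 0.152. Sort 1 was the highest for both genes in both cell types, and its Arntl levels of 6.18 (luminal) and 6.61 (basal) were the lowest of M4. The 3 M4 sorts were amplified in 3 batches, so sort and batch coincide there, and Iw4 sort 5, of the same batch as M4 sort 1, was also the highest of Iw4 for Nr1d2 (149 luminal and 138 basal) and Dbp (3.07 and 4.17). Arntl did not follow in both cell types, since Iw4 sort 5 was the lowest of Iw4 in luminal (9.56) and the highest in basal cells (24.1).

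The luminal and basal deviations of a sort from their time point means were then set side by side in the 22 sorts that had both libraries. Pearson's r was 0.74 for Arntl (Spearman's rho 0.65), 0.71 for Per3 (0.58), 0.71 for Nr1d2 (0.67), 0.61 for Dbp (0.50), 0.56 for Per1 (0.26) and 0.52 for Nr1d1 (0.56). It was 0.42 for Cry1, 0.19 for Cry2, 0.17 for Clock and 0.17 for Per2. The median over 10580 genes was 0.24, and 6 of the 10 members were above 0.5 against 18.4% of genes. The 2 libraries of a sort shared their mice, their day and their handling, and with 3 sorts or fewer in a group the deviations are not independent. Without the Id2 sorts r was 0.70 for Per1, 0.68 for Nr1d2, 0.64 for Arntl, 0.46 for Dbp, 0.43 for Cry1, 0.40 for Cry2, 0.38 for Nr1d1, 0.25 for Per3, 0.18 for Clock and 0.10 for Per2, beside a median of 0.26 over genes, and 3 members were above 0.5 against 22.5% of genes. The value for Per1 rested on W10 sorts 3 and 5, without which r was 0.045, and that for Per3 on Id2 sorts 2 and 6 (0.27 without them). For Nr1d1 r was 0.31 without Iw4 sort 6 and Id2 sort 2, and for Cry2 it changed sign, to -0.11, without Iw4 sort 5 and P3.5 sort 6. Within the 6 time points of a single batch r was 0.78 for Arntl, 0.70 for Per3, 0.62 for Per1, 0.58 for Nr1d2 and 0.57 for Nr1d1 (median of genes 0.20, 16 sorts). There it was 0.49 for Dbp, 0.43 for Cry1, 0.08 for Clock, 0.08 for Cry2 and 0.06 for Per2.

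**Figure D3:**
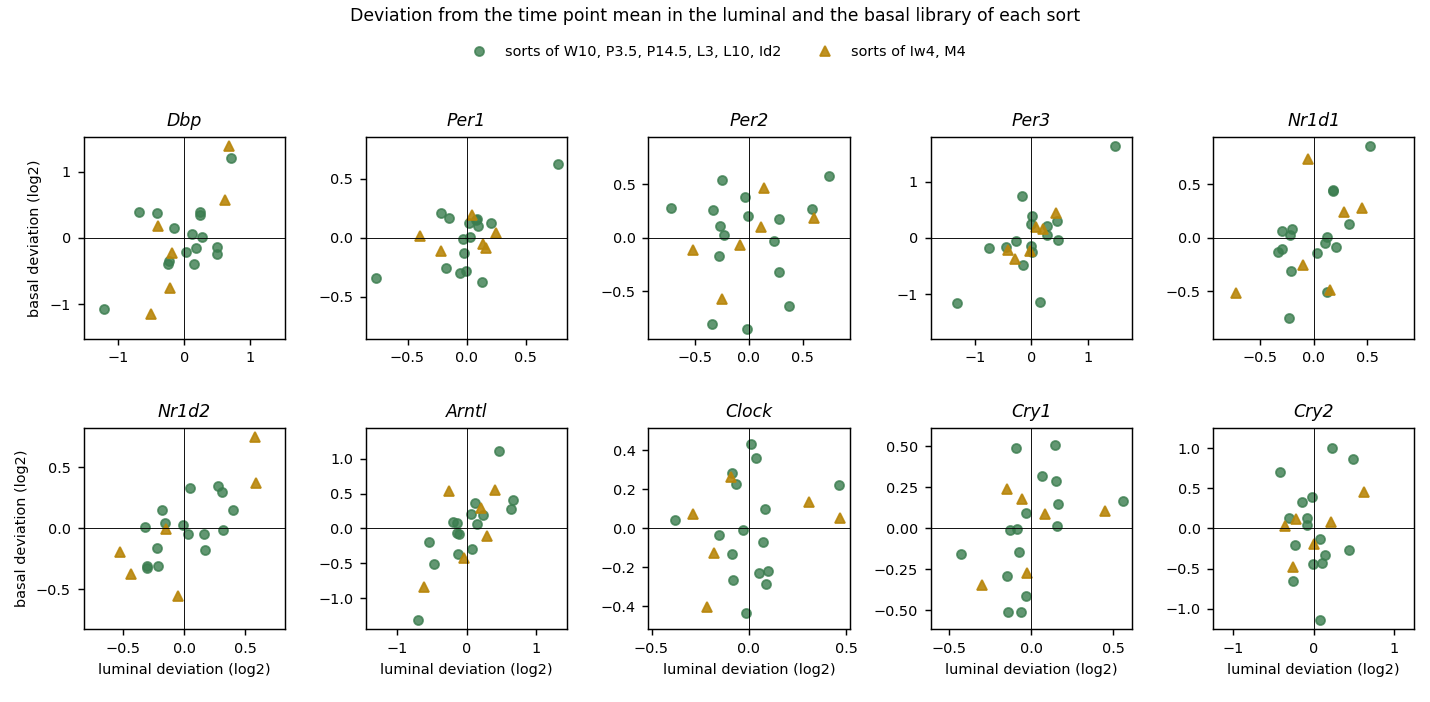
Deviation of the luminal library (x axis) and of the basal library (y axis) of each of 22 sorts from the mean of its time point, on the log2(CPM + 1) scale. Triangles are the Iw4 and M4 sorts, which lie in 3 amplification batches. Points run from lower left to upper right for Arntl (r = 0.74) and Nr1d2 (r = 0.71) and show no such order for Per2 and Clock (r = 0.17 each).

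An F-test of the differences between sorts of a time point, in a fit with the cell type by time point groups, called no member at 0.01 with limma (0.668% of all genes) or edgeR. An unadjusted p under 0.05 was reached by 6 of the 10, beside 10 of the 11 immediate early and 4 of the 8 glucocorticoid-responsive genes. Of all genes, 21% reached that unadjusted threshold. At an adjusted p under 0.05 the F-test passed Per3 (adjusted p = 0.0123), Nr1d2 (0.0347) and Arntl (0.0416), 3 of 10 against 2.73% of all genes. Without the Id2 libraries Nr1d2 alone passed 0.05 (adjusted p = 0.0487), with Per3 at 0.318 and Arntl at 0.113, and 2.27% of all genes passed. Without M4 and Iw4, whose sorts lie in different batches, none passed 0.05 (Per3 at 0.0697, Arntl at 0.16, Nr1d2 at 0.364, and 0.656% of all genes). For M4 and Iw4 the sort cannot be told apart from the batch. In the fit with all libraries, the glucocorticoid-responsive genes Tsc22d3 (adjusted p = 0.00546) and Zbtb16 (0.00395) and the immediate early gene Ier2 (0.00467) were called between sorts, 2 of 8 and 1 of 11, and at 0.05 these lists had 4 of 8 and 3 of 11. Their part in the differences of the clock genes was not tested.

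The members were also set against each other over the 46 libraries, as deviations from the mean of each group. Arntl ran opposite to Per3 (r = -0.61), Dbp (r = -0.57), Nr1d2 (r = -0.52) and Per2 (r = -0.49), and Dbp ran with Nr1d2 (r = 0.67) and Per3 (r = 0.58). Cry2 ran with Per2 (r = 0.63, and 0.60 without Id2). Arntl was negative with Per3 (-0.59 and -0.63), Dbp (-0.41 and -0.69) and Nr1d2 (-0.41 and -0.64) in luminal and in basal libraries, which share their sorts. Without Id2, in 40 libraries, r was -0.32 for Arntl with Per3, -0.38 with Dbp, -0.46 with Nr1d2 and -0.39 with Per2, and for Dbp it was 0.65 with Nr1d2 and 0.27 with Per3. In the 21 luminal and 19 basal libraries left, Arntl was at -0.50 and -0.15 with Per3, -0.30 and -0.48 with Dbp, and -0.34 and -0.61 with Nr1d2. These are descriptions, and libraries of a sort are not independent points.

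**Figure D4:**
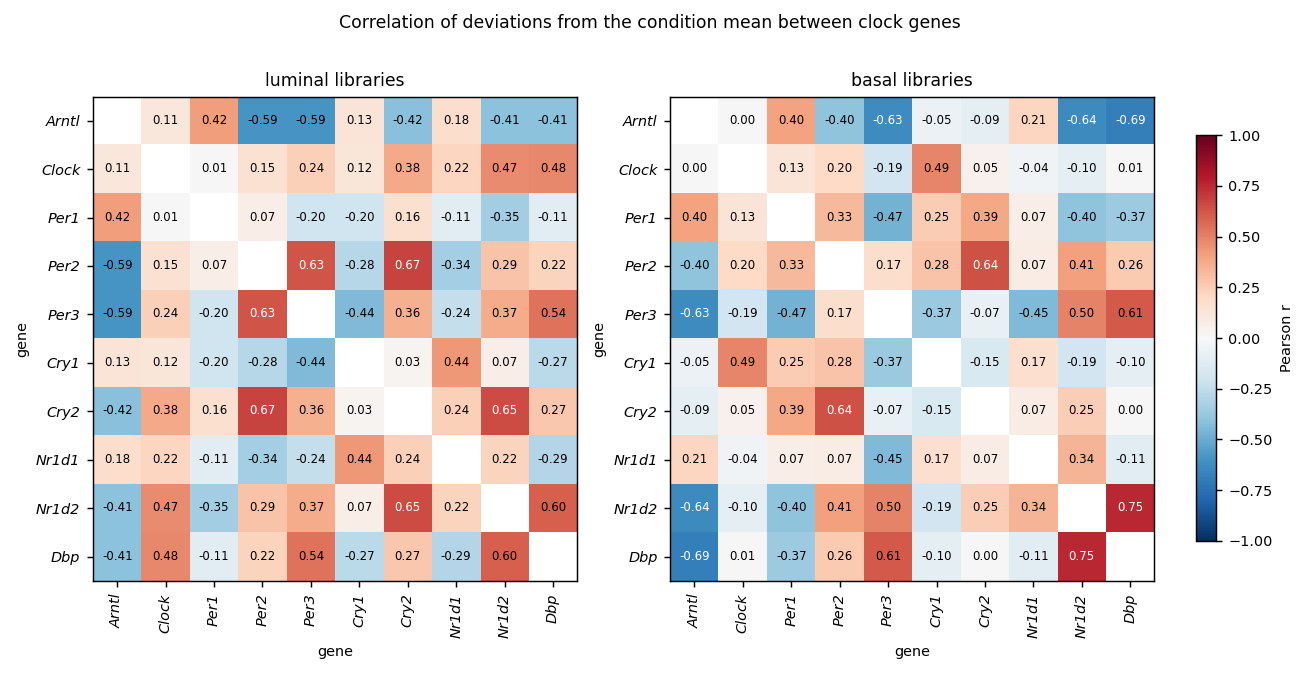
Pearson correlation between each pair of clock genes, over deviations of the libraries from their group mean on the log2(CPM + 1) scale, in the 24 luminal libraries (left) and the 22 basal libraries (right). The row of Arntl is blue against Per2, Per3, Nr1d2 and Dbp in both panels, and Nr1d2 with Dbp is red (0.60 and 0.75, or 0.59 and 0.72 without the Id2 libraries, which are included here).

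Each member was also set against the 10580 genes, as deviations from the group means over the 46 libraries, and the 3 nearest by Pearson's r are named. Dbp lay closest to Tef (r = 0.69), which encodes a further PAR bZIP factor, Nr1d2 (0.67) and Evc (0.66), and Nr1d2 to Tef (0.76), Ndfip1 (0.73) and Capza2 (0.70). Per1 lay closest to Csrnp1 (0.82), Sik1 (0.79) and Elmsan1 (0.77), and Per2 to Fosb (0.66), Cry2 (0.63) and Frk (0.61). Sik1, a salt-inducible kinase, and Fosb, a subunit of AP-1, are rapidly induced genes. Per3 lay closest to Plxdc2 (0.79), Cdk14 (0.76) and Tbc1d2b (0.75), and Nr1d1 to Wbp2 (0.80), Ctsd (0.80) and Cyb5r3 (0.78). Arntl lay closest to Kank1 (0.69), Notch1 (0.69) and Ulk1 (0.68) and farthest from Ikbip (-0.71), Arfip1 (-0.70) and Cdk14 (-0.65), so that Cdk14 was near Per3 and opposite to Arntl. Without the Id2 libraries these fell in size to 0.31, 0.47 and 0.43 for the 3 genes of Per3, and to -0.51, -0.56 and -0.32 for Ikbip, Arfip1 and Cdk14 with Arntl, whose nearest genes were at 0.61, 0.48 and 0.60. Dbp was farthest from Dbi (-0.63), Cmpk2 (-0.62) and Gpd1 (-0.62). Clock lay closest to Nbeal1 (0.78), Fam84a (0.78) and Grik3 (0.75), Cry1 to Sh3bp2 (0.70), Stk40 (0.69) and Baiap2 (0.69), and Cry2 to Lin7a (0.80), Id3 (0.74) and Parp3 (0.71). For the nearest genes of the members other than Per3 and Arntl, r without Id2 lay between 0.47 (Per2 with Frk) and 0.81 (Per1 with Csrnp1), and for the genes farthest from Dbp between -0.65 and -0.52.

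The other genes of the clock pathway were read from a list of 22, of which 21 were in the table (Rorb was not). Over all time points 4 of the 21 were called lower and 2 higher in basal cells, where 21.0% of all genes were called in either direction. Those lower included Npas2 (-2.02 on the log2 scale), which can stand in for CLOCK, Rora (-1.39), which activates Arntl from ROR elements, and Hlf (-1.39), a PAR bZIP factor. Fbxl21, a ligase adaptor for CRY proteins, (1.24) and Nfil3, a repressor acting on D-boxes, (1.08) were higher. The median of the list was -0.27, beside 0.02 for all genes. The time course differed between the cell types in 5 of the 21, against 13.4% of all genes, by the F-test of the interaction. These included Npas2 (adjusted p = 0.00517), Bhlhe41 (0.00153), Nfil3 (0.000102) and Fbxw11 (0.0054). None of the 21 differed between sorts at 0.01 in limma or edgeR. An unadjusted p under 0.05 was reached by 6 of the 21, and by 21% of all genes. Tef (adjusted p = 0.0127) and Npas2 (0.0484) passed an adjusted 0.05, as did 2.73% of all genes. In basal cells Tef had a mean of 66.9 at L3 and 70.9 at L10, and it was called higher at both time points. At L10 its difference was 1.77 ± 0.43 (adjusted p = 0.00185). With Usp2 and Csnk1e, 3 of the 21 were called higher at L10, against 8.02% of all genes, while Npas2 was called lower.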

How the data were processed

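The deposited table held normalized signal values per gene, which the authors made with GSNAP (version 2012-07-20, NCBI Build 37.1), htseq-count v0.5.3p3 and edgeR from reads of amplified cDNA sequenced on the HiSeq 2000. The authors scaled reads to 1e6 reads of an effective library size (CPM), so columns differ in their sums, and removed genes with low counts and very highly read genes of low variability. Of 47 samples described, 46 had a column. P14.5 basal replicate 2 was not analysed here. Whole reads were recovered from 100% of the values (within 0.01 read).

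The main test was limma 3.58.1 in R 4.3.3, with trend, on log2(value + 1), in 1 model of 16 groups over all 17078 genes, with Benjamini-Hochberg adjustment over all genes. A call needed an adjusted p under 0.01 and, outside F-tests, a 2-fold difference. edgeR 4.0.16 (quasi-likelihood) on recovered reads, a pseudocount of 0.1, a minimum mean of 5, median-ratio rescaling, a threshold of 0.05, the sort as a replicate block, leaving out the Id2 libraries and leaving out each sort were alternatives. Same-numbered luminal and basal libraries come from the same sort and so the same mice, which is where the pairing comes from, and the consensus correlation within a sort was 0.18. Differences between sorts were tested with 14 sort terms and 14 residual degrees of freedom. The clock genes and the other gene lists were chosen with earlier results of these data known. Named genes were the 10 members, genes of the lists called in the result described, and for each member the 3 genes of highest correlation (for Arntl and Dbp also the 3 of lowest) among genes with a mean of at least 5. The rule for promoters (members called between sorts or with the largest change within a batch) was not kept. Those shown were chosen after seeing the data, Cry1 and Cry2 for their time course and Per1, Per3 and Arntl for a match. Replicates were separate pools of mice. The tests were checked on simulated data. Symbols were found for 16897 of the gene identifiers, and exon lengths and overlaps came from GENCODE vM21, a later build. Of the list of other clock genes, 1 gene is not reported here.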

Additional observations from a re-analysis of the deposited data

Results flagged for a closer look

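Both results singled out for a closer look were differences between the cell types in a time course. Cry1 followed a different time course in luminal and basal libraries, by the F-test of the interaction in limma (adjusted p = 8.41e-06), with luminal means of 33.7 at W10 and 7.83 at Id2 beside basal means of 11.1 and 12.6. Cry2 did so too (adjusted p = 3.26e-05), with luminal means of 80.4 at W10 and 33.9 at Id2 beside basal means of 23.2 and 98.8. The basal means of Id2 include replicates 2 and 6, whose basal markers lay in the luminal range. Both genes were called without the Id2 libraries. Groups held 3 libraries or fewer, and single libraries were not tested for outlying values.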

How the results depend on the processing

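No named call that has a direction reversed under the alternatives run for it, which does not cover differences that were not called. The agreement of the cell types in Cry2 did change sign (r from 0.19 to -0.11 without 2 sorts). At a threshold of 0.05 the clock genes called over time in luminal cells went from 3 to 7, those between time points of one amplification batch from 3 to 8, and those between sorts from 0 to 3. Of all genes, 48.7% passed 0.05 over time in luminal cells and 2.73% between sorts. The batch count also needed a 2-fold difference, and the share of all genes under both conditions is not given. By an adjusted p under 0.05 alone, that share ran from 0% (Iw4 and M4, luminal) to 29.6% (Id2 and W10, basal) over the batch pairs. Over all time points the basal against luminal count went from 0 to 1, Dbp, with a pseudocount of 0.1, with edgeR and without the Id2 libraries. Without Id2 the pair of W10 and Id2, which held all 3 calls within batches, could not be computed. The count was then 1, Nr1d1, gained in another pair. Leaving out 1 sort at a time gave 2 to 5 genes over time in luminal cells, 4 to 7 in basal cells, 2 to 3 with a different time course, 0 to 1 over all time points, 10 to 13 by time point, 3 to 6 against the rest in luminal cells and 4 to 12 in basal cells (4 without L10 replicate 6), 2 to 4 within batches and 0 to 1 between sorts. With the sort as a replicate block Nr1d2 in luminal cells over time (adjusted p = 0.00784), the interaction of Per2 (0.00258) and Dbp at L3 (0.00375) were added, and the block changed no other call. No block could be fitted for the difference between sorts. Without M4 and Iw4, an alternative chosen after seeing the data, as was leaving Id2 out of the correlations, the count between sorts was 0. Of the 42 named calls, edgeR lost 5, a pseudocount of 0.1 lost 4 (3 of Dbp and luminal Per2 at W10) and median-ratio rescaling lost 1 (basal Arntl within a batch). The edgeR losses include Cry2 between the cell types at M4, basal Cry2 at M4 and basal Arntl within a batch. The other edgeR losses were Per2 between the cell types at Id2 (adjusted p = 0.0104) and basal Per2 at P3.5 (0.011). The cause of these changes was not tested. Groups of 2 or 3 pools limit every comparison, and the few reads of Dbp limit its values.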
